A study of Homo sapiens with 6 samples.

Results

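The genes of the proteasome, the large protease complex that degrades ubiquitin-tagged proteins, were followed in an esophageal cancer line with and without KEAP1. Members were chosen by gene symbol: every PSMA, PSMB, PSMC, PSMD, PSME, PSMF and PSMG gene analysed here, plus POMP, which gave 48 genes of the 58884 rows of the expression matrix. RNA-seq was run on 3 libraries of KYSE450, a human line of esophageal squamous cell carcinoma whose NFE2L2 gene the study describes as wild type, and on 3 libraries of KEAP1null-KYSE450, its derivative. The derivative was made by CRISPR-Cas9 with a guide to exon 2 of KEAP1, the adaptor that marks the transcription factor NRF2 (gene NFE2L2) for degradation. Both lines were grown untreated in the same RPMI1640 medium with fetal bovine serum, and total RNA was the input for the libraries. KEAP1null-KYSE450 is a single expanded clone, so the loss of KEAP1 and any other property of that clone cannot be told apart. Nothing in the descriptions says that the libraries of a line came from separate cultures, so the p-values measure only the spread between these libraries, which may be technical.

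The proteasome is built from a barrel-shaped core particle and a regulatory particle that caps it. The core has outer rings of alpha subunits, which gate the entrance, and inner rings of beta subunits, of which PSMB5, PSMB6 and PSMB7 carry the cutting sites. The regulatory particle has a base, with a ring of ATPases that unfold substrates, and a lid, which removes ubiquitin; dedicated chaperones assemble both. Cells restore proteasome genes through the transcription factor NFE2L1, and NRF2 and NFE2L3 belong to the same family and bind related DNA elements.

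Because those factors recognise a short DNA element whose core reads TGACNNNGC, the windows from 250 bases before to 50 bases after the annotated start sites were searched on both strands. RefSeq windows on GRCh38.p14 were found for 42 of the 48 members, 51 windows in all, and 14 of the 51 windows (27.5%), belonging to 14 members, held the element, against 13.3% of all 34943 windows. CCAAT, the box bound by NF-Y, stood in 19 of the 51 windows (37.3%) against 34.6% of all windows. Stretches of 49 bases around a match upstream of the start are printed for 6 members so that genes that moved in different directions can be set side by side: PSME1, which was higher in KEAP1null-KYSE450, PSME2 and PSMA4, which did not pass the test, and PSMD3, PSMD12 and PSMC5, which were lower. They run 5′ to 3′ on the strand of the gene, with the matched element in capitals. The match in PSMC5 lies on the opposite strand.
PSME1 (chr14:24136088-24136136, plus strand): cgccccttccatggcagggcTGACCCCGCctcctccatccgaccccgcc
PSME2 (chr14:24146757-24146805, minus strand): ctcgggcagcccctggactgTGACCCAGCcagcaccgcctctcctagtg
PSMA4 (chr15:78540640-78540688, plus strand): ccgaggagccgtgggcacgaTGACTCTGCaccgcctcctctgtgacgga
PSMD3 (chr17:39980750-39980798, plus strand): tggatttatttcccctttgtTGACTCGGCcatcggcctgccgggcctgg
PSMD12 (chr17:67366714-67366762, minus strand): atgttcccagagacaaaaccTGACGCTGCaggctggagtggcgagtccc
PSMC5 (chr17:63827644-63827692, plus strand): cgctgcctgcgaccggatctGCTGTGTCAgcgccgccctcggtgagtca
The element begins 86 bases before the start site in PSME1 and 37 bases before it in PSMD3. A match describes these letters in this window only, and binding of a factor was not measured.

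The values are normalized counts, that is, reads divided by a size factor of the library, and their totals ranged from 54829313 to 57380170 per library. Whole reads could be recovered in 4 libraries, which held 53027359 to 61543442 reads, and 3 reads corresponded to 2.77 to 3.21 normalized counts. Libraries of the same line correlated across genes with r of 0.984 to 0.989, and libraries of different lines with r of 0.924 to 0.936. KEAP1 mRNA itself overlapped between the lines (log2 fold change -0.02, adjusted p = 0.9), and a gene-level count does not show an edit within the transcript. The NRF2 targets NQO1 and GCLC were 6.48-fold and 15.75-fold higher in KEAP1null-KYSE450. Of the 6 epithelial markers, KRT5, TP63, EPCAM and CDH1 were at 4407 or higher in all 6 libraries. KRT5 was higher in KEAP1null-KYSE450, at 174377 to 250359 in KYSE450 and 519548 to 648677 in KEAP1null-KYSE450. KRT14 was lower, at 2136 to 2699 in KYSE450 and 30.5 to 41.8 in KEAP1null-KYSE450. So were KRT6A (64933 to 81897 and 2540 to 3028), CDH1 (7567 to 11684 and 4407 to 6929) and TP63 (18888 to 24150 and 13086 to 16389). EPCAM overlapped between the lines. The immune cell markers PTPRC, CD3E, CD14, CD68 and LYZ were between 0 and 10.2 normalized counts in every library, with CD3E under 3 reads throughout. COL1A1, among 4 fibroblast markers, was 607 to 839 in KYSE450 and 333 to 431 in KEAP1null-KYSE450, COL1A2 and DCN were at or under 3 reads, and PDGFRB was at most 1.01 in KYSE450 and between 0 and 12.9 in KEAP1null-KYSE450.

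Most proteasome genes that differed between the lines were lower in KEAP1null-KYSE450, by moderate amounts. Of the 48 members, 46 had a mean of at least 10 and were tested. Among these, 26 (56.5%) were lower at an adjusted p under 0.05, against 25.5% of all 16701 genes tested, and 2, PSMB10 and PSME1, were higher, against 24.3% of all genes. The remaining 18 did not pass the test. Fold changes are differences of log2(normalized count + 1), KEAP1null-KYSE450 minus KYSE450, with standard errors (SE) from limma on all 6 libraries. The median over the 46 members was -0.36, beside 0.004 over all genes tested.

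Proteasome genes are abundantly transcribed, and abundant genes as a group leaned lower. Among the 7758 genes whose mean reached 1000 or more, the median was -0.15, with 37.5% lower and 16.0% higher. Of the 41 members in that range, 25 were lower and 1 was higher. No member passed both an adjusted p of 0.05 and an absolute log2 fold change of 1, thresholds passed by 18.2% of all genes, and none did so with an unadjusted p under 0.05, by edgeR or by DESeq2. The 3 libraries of each line did not overlap for 27 members that were lower, against 29.3% of all genes, and for 4 that were higher, against 28.4%. As bulk RNA was measured, fewer cells expressing a gene and less RNA per cell cannot be told apart.

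The number of calls changed with the scaling of the libraries and with the test. The share of all genes called in each of these other fits is not given here. With the libraries rescaled to the same total, 24 members were lower and 2 higher. After quantile normalization, 16 members were lower and 6 higher, so that the lower share of the calls moved from 92.9% to 72.7%, and the median over the members was -0.21, beside -0.017 over all genes. By edgeR's quasi-likelihood test on the reads of the 4 recovered libraries, 13 were lower and 2 higher, with a member median of -0.35. These were libraries 1 and 3 of KYSE450 and libraries 1 and 2 of KEAP1null-KYSE450, and DESeq2 used the same ones. A set of 13 members was lower, and both PSMB10 and PSME1 were higher, in each of the 16 settings tried: PSMB2 and PSMB4 of the core, PSMC2, PSMC3 and PSMC4 of the ATPase ring, PSMD1, PSMD2 and PSMD4 of the base, and PSMD3, PSMD8, PSMD11, PSMD12 and PSMD13 of the lid.

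**Figure D1:**
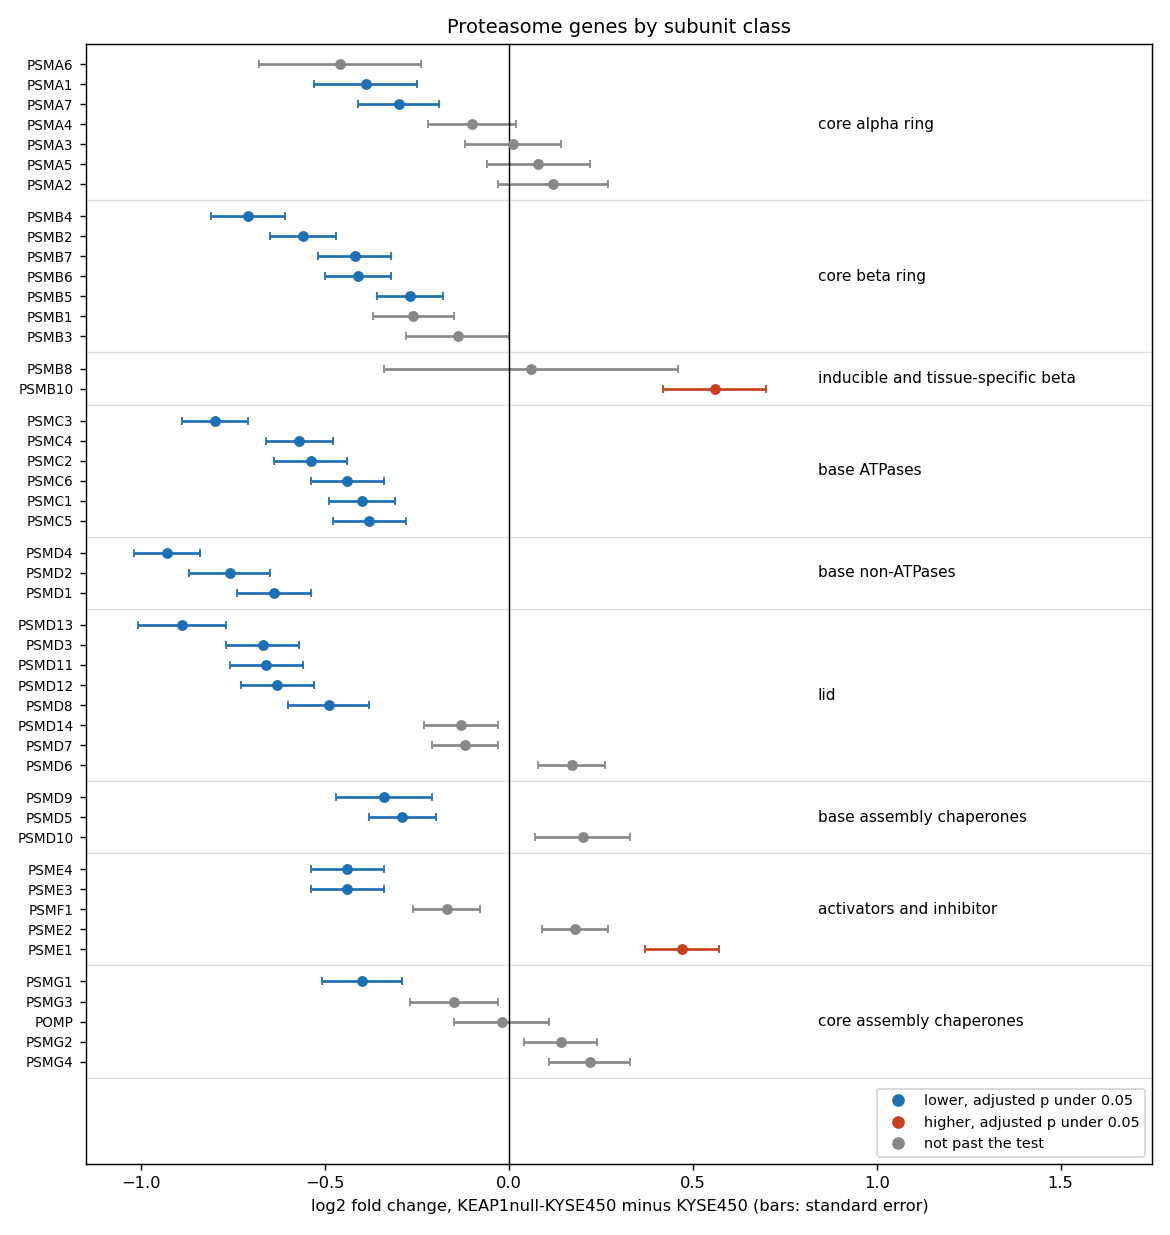
Log2 fold change (KEAP1null-KYSE450 minus KYSE450, x axis) of the 46 tested proteasome genes, grouped by subunit class, with bars for the standard error (3 libraries per line). All 9 base genes shown lie below 0, between -0.93 and -0.38, whereas the alpha ring and the core assembly chaperones lie on both sides of 0.

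Class medians were lower for the regulatory particle than for the core, a difference given as a description with no test. The classes hold only members, so ADRM1 of the base and SEM1 of the lid are given below with other proteasome-binding genes. All 9 base members were lower (range -0.93 to -0.38, median -0.57), and 5 of the 8 lid members were lower (median -0.56). In the core, 5 of 7 beta ring genes were lower (median -0.41), and 2 of 7 tested alpha ring genes were lower (median -0.10), a share near the 25.5% of all genes. After quantile normalization 3 beta ring genes (median -0.21) and 0 alpha ring genes (median 0.05) were lower, and by edgeR 2 and 0. Summed over its genes, the count fell by 41.4% for the non-ATPase base subunits, by 30.8% for the ATPases, by 28.4% for the lid and by 23.3% for the beta ring. For the alpha ring the mean of the sum was 8.2% lower, but the libraries overlapped, with 53982, 65840 and 73960 in KYSE450 and 53308, 60421 and 64180 in KEAP1null-KYSE450.

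The ratio of the summed regulatory particle counts to the summed core counts gives the same contrast within each library. In KYSE450 it was 1.65, 1.43 and 1.40, and in KEAP1null-KYSE450 it was 1.33, 1.16 and 1.16. The lines did not overlap, although the first library of each line had the highest ratio of its line. Together, the members took 0.841, 0.895 and 0.940% of all counts in KYSE450 and 0.681, 0.695 and 0.721% in KEAP1null-KYSE450. The ratio is a description of sums of counts, in which long and abundant transcripts weigh more.

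The first library of each line stood apart for many members. Of the 46 tested members, 25 had their lowest value in the first library of both lines, a pattern shown by 20.4% of all genes tested. They included all 7 tested alpha ring genes and all 5 core assembly chaperones, but none of the 3 non-ATPase base subunits. Without the first library of both lines, 29 members were lower and 4 higher. The share of all genes called without these libraries is not given here. The medians were then -0.61 for the regulatory particle and -0.34 for the core, beside -0.57 and -0.29 with all libraries.

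Within the alpha ring, PSMA2, PSMA3, PSMA4 and PSMA5 had log2 fold changes smaller in size than their standard errors, which does not show equal levels. PSMA3 measured 8281, 9992 and 11714 in KYSE450 and 8816, 10246 and 10897 in KEAP1null-KYSE450 (log2 fold change 0.01, SE 0.13, adjusted p = 0.97). PSMA4 (-0.10, SE 0.12), PSMA5 (0.08, SE 0.14) and PSMA2 (0.12, SE 0.15) did not pass the test either. In all of these genes the libraries of the lines overlapped, and the spread within KYSE450 was wide: the highest library was 1.49 times the lowest for PSMA5.

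PSMA7 was the alpha ring gene whose libraries did not overlap, with 18613, 21796 and 23591 in KYSE450 and 16134, 17068 and 18525 in KEAP1null-KYSE450 (-0.30, SE 0.11, adjusted p = 0.034). PSMA1 was lower by a similar amount, -0.39 (SE 0.14, adjusted p = 0.031), although its libraries overlapped. Both calls were lost when library 2 or 3 of KYSE450 or library 1 or 2 of KEAP1null-KYSE450 was left out, at the least -0.23 for PSMA7 and -0.27 for PSMA1 without the third KYSE450 library, and also by edgeR, by DESeq2 and after quantile normalization. PSMA6 was -0.46 with a larger error (SE 0.22, adjusted p = 0.099). Without the first KYSE450 library it was -0.70 and passed the test. PSMA8, a testis-specific alpha subunit, was 0 in all 6 libraries.

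Several alpha ring genes share exons with another annotated gene on the same strand. The shared part of the canonical transcript was complete for PSMA2, 81.4% for PSMA6 and 67.0% for PSMA1. These 3 genes had 314 to 1836 normalized counts per kb of canonical transcript in KYSE450, against 3558 to 22176 per kb for PSMA3, PSMA4, PSMA5 and PSMA7. The level per length of these 3 thus lay below that of the other 4. The rule by which reads in shared exons were counted is not given in the sources used here, and its part in these levels was not tested.

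**Figure D2:**
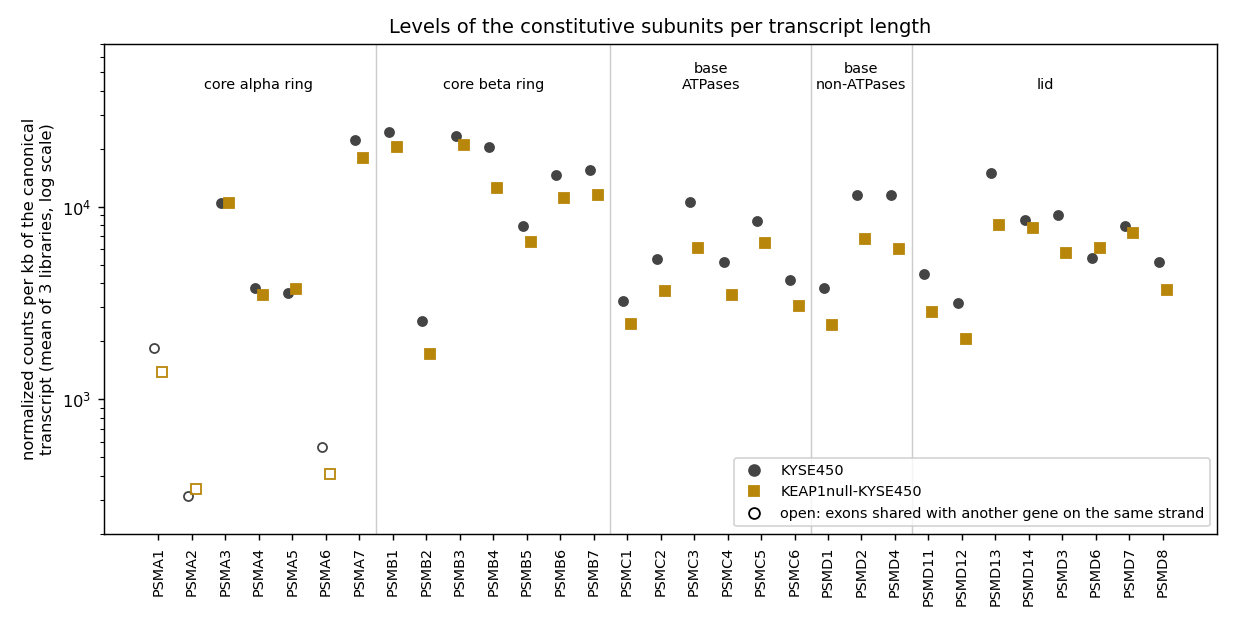
Level of the constitutive subunits in normalized counts per kb of canonical transcript (y axis, log scale, mean of 3 libraries), circles for KYSE450 and squares for KEAP1null-KYSE450. Open symbols mark PSMA1, PSMA2 and PSMA6, whose exons are shared with another gene on the same strand and which hold the 3 lowest levels of the alpha ring.

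Of the beta ring, PSMB4 fell most. PSMB4, which has no cutting site, measured 17441, 18724 and 20343 in KYSE450 and 10907, 11353 and 12355 in KEAP1null-KYSE450, so that the 3 values of each line lay well apart. Its mean was 38.7% lower (-0.71, SE 0.10, adjusted p = 7.7e-05). PSMB2 was lower by 0.56 on the log2 scale, from 10714 to 11746 down to 7405 to 7719. PSMB1 (-0.26, adjusted p = 0.061) and PSMB3 (-0.14, adjusted p = 0.41) did not pass the test with all libraries. Both did without the first KYSE450 library, at -0.36 and -0.29.

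The 3 genes for the catalytic beta subunits were lower by less than PSMB4. PSMB6, the caspase-like subunit, measured 11940, 11927 and 12394 in KYSE450 and 9202, 8735 and 9427 in KEAP1null-KYSE450 (-0.41, SE 0.09, adjusted p = 0.0019). PSMB7, the trypsin-like subunit, measured 13663, 15637 and 16199 against 10969, 10939 and 12045 (-0.42, SE 0.10, adjusted p = 0.0034). PSMB5, the chymotrypsin-like subunit and the target of proteasome inhibitors used in the clinic, measured 7987, 8130 and 8617 against 7183, 6445 and 6923 (-0.27, SE 0.09, adjusted p = 0.025). For none of the 3 did the lines overlap. By edgeR on 4 libraries, PSMB6 and PSMB7 missed the threshold at -0.41 each (adjusted p = 0.073 and 0.083), as did PSMB7 after quantile normalization (-0.22). The call for PSMB5 held in 8 of the 16 settings and was lost after quantile normalization (-0.10, adjusted p = 0.36), by edgeR (adjusted p = 0.26), by DESeq2 and without any 1 of 4 libraries, libraries 2 and 3 of each line, at -0.28 to -0.22.

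Of the inducible beta genes, PSMB10 was higher. PSMB10, which replaces PSMB7 in the immunoproteasome, was low in both lines, with 295, 351 and 302 in KYSE450 and 483, 490 and 428 in KEAP1null-KYSE450. Every library of KEAP1null-KYSE450 lay above every library of KYSE450, and the mean was 1.48-fold higher (0.56, SE 0.14, adjusted p = 0.0056). Another gene on the same strand, with a mean of 33.9 counts, overlaps 56.1% of its canonical transcript. PSMB8, which replaces PSMB5, was near the floor at 28.9, 19.2 and 19.6 against 30.5, 19.4 and 21.2 (0.06, SE 0.40, adjusted p = 0.91). PSMB11, the beta subunit of the thymus, gave 1 read in 1 library and was not tested. The immune cell markers given above were low, with LYZ at 0 to 3.03 in KYSE450 and 4.08 to 10.2 in KEAP1null-KYSE450. The cell source of the PSMB10 reads was not tested.

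The 6 ATPases of the base moved together. PSMC3 fell most, with 16253, 16260 and 16380 in KYSE450 and 9801, 8795 and 9538 in KEAP1null-KYSE450. The 3 KYSE450 libraries lay within 1.01-fold of each other, and the fall to a mean of 9378 ± 522 (SD, n = 3) was 42.5% (-0.80, SE 0.09, adjusted p = 1.3e-05). PSMC4 was -0.57, PSMC2 -0.54, PSMC6 -0.44, PSMC1 -0.40 and PSMC5 -0.38, with adjusted p-values between 0.00018 and 0.0067, and the lines did not overlap in any of the 6. Calls for PSMC1, PSMC5 and PSMC6 were lost after quantile normalization and by edgeR, at -0.20, -0.18 and -0.26 in the former, and that for PSMC5 also by DESeq2 (adjusted p = 0.061). Of the canonical PSMC1 transcript, 83.2% lies opposite NRDE2, and without strand in the counting the reads of such a pair cannot be told apart.

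Among the 3 non-ATPase subunits of the base, PSMD4 was the member with the largest fall. PSMD4, a receptor for ubiquitin chains at chr1:151254709-151267479 on the plus strand (hg38), measured 15010, 15084 and 15499 in KYSE450 and 7948, 7763 and 8193 in KEAP1null-KYSE450. Each line was tight and the lines were far apart: 15198 ± 264 against 7968 ± 216 (SD, n = 3), or 47.6% lower (-0.93, SE 0.09, adjusted p = 2.6e-06). PSMD2, a scaffold that docks substrate shuttles, was the most abundant member by count, with 36634, 31599 and 31896 falling to 22175, 17710 and 19290 (-0.76, SE 0.11, adjusted p = 0.00012). PSMD1, the other scaffold, was -0.64 (SE 0.10, adjusted p = 0.00026), again without overlap.

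The lid members divided into 5 genes that fell and 3 that did not pass the test. SEM1, a small lid protein that is not a member, was higher by limma (0.29) and is given below. PSMD13 measured 20225, 23859 and 27016 in KYSE450 and 11543, 13331 and 13315 in KEAP1null-KYSE450 (-0.89, SE 0.12, adjusted p = 5.2e-05). PSMD3 was -0.67, PSMD11 -0.66, PSMD12 -0.63 and PSMD8 -0.49. PSMD14, the deubiquitinase of the lid, was 11649, 13678 and 14611 against 11620, 12124 and 12712, and PSMD7, its partner in a dimer, was 11967, 13005 and 13722 against 11805, 11560 and 12288. The lines overlapped in both, with adjusted p-values of 0.33 and 0.31, and PSMD14 passed as lower without the first library of both lines (-0.19, adjusted p = 0.036). PSMD6 was 0.17 (SE 0.09, adjusted p = 0.16). It passed the test as higher after quantile normalization (0.34) and without the first library of both lines (0.19).

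**Figure D3:**
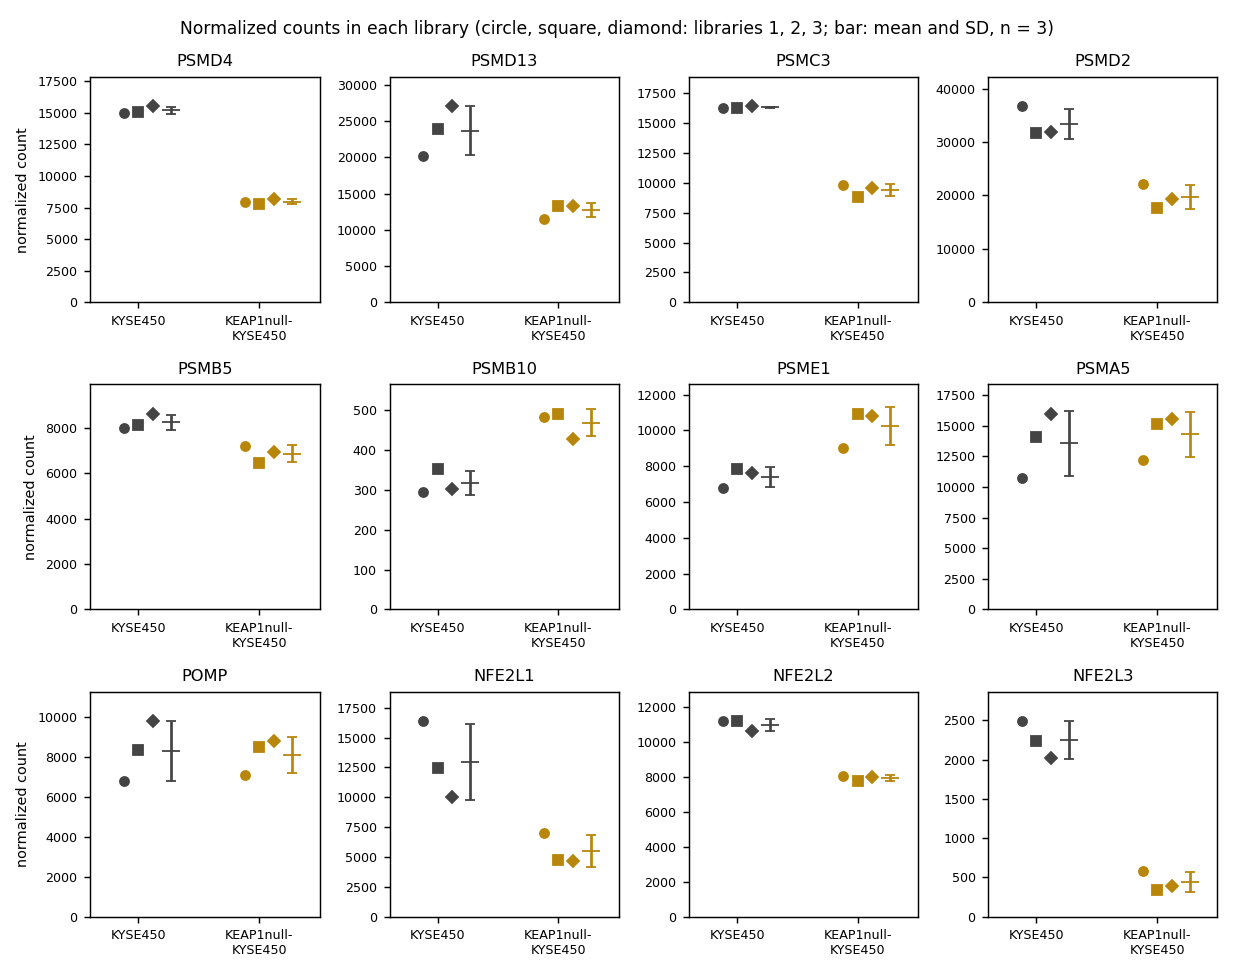
Normalized counts (y axis, from 0) of 9 proteasome genes and of NFE2L1, NFE2L2 and NFE2L3 in each of the 3 libraries of KYSE450 and KEAP1null-KYSE450, with the mean and SD of each line. PSMD4, PSMD13, PSMC3 and PSMD2 separate downward, PSMB10 and PSME1 upward, and PSMA5 and POMP overlap.

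The regulators that can replace the cap or block the core did not move as one. PSME1, a subunit of the interferon-inducible activator, measured 6757, 7822 and 7611 in KYSE450 and 9020, 10930 and 10825 in KEAP1null-KYSE450, a 1.38-fold rise without overlap (0.47, SE 0.10, adjusted p = 0.0025). PSME2, its partner in the same ring, measured 3694, 3985 and 3936 against 4036, 4456 and 4657. The lines did not overlap for PSME2 either, but the difference did not pass the test (0.18, SE 0.09, adjusted p = 0.13) except after quantile normalization (0.32) and without the first library of both lines (0.20).

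PSME3, which forms the nuclear activator, fell from 19896, 17731 and 20032 to 14961, 13255 and 14213 (-0.44, SE 0.10, adjusted p = 0.0021). PSME4, a large activator that binds the core as a single chain, fell from 11964, 10118 and 10731 to 8691, 7863 and 7557 (-0.44, SE 0.10, adjusted p = 0.0025). Thus 2 of the 5 genes of this class were lower and 1 was higher. Among genes whose mean reached 1000 or more, 37.5% were lower and 16.0% higher, so the class lay near that background. By edgeR neither fall passed, with adjusted p = 0.051 for PSME3 and 0.066 for PSME4, whose call was also lost after quantile normalization (-0.23). PSMF1, a binder of the core known as an inhibitor, was -0.17 (SE 0.09, adjusted p = 0.16).

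The assembly chaperones of the core differed little between the lines. POMP, which guides the beta ring into place, measured 6772, 8323 and 9798 in KYSE450 and 7093, 8473 and 8781 in KEAP1null-KYSE450 (-0.02, SE 0.13, adjusted p = 0.9), with overlap. PSMG1 was the only 1 of the 5 that passed the test, from 6238, 7107 and 8126 to 5069, 5340 and 5738 (-0.40, SE 0.11, adjusted p = 0.0079), though not by edgeR (adjusted p = 0.074) or after quantile normalization (adjusted p = 0.098). PSMG2, which forms a pair with PSMG1, was 4712, 5292 and 5704 against 5207, 5878 and 6168 (0.14, SE 0.10, adjusted p = 0.3), with overlap, though it passed as higher after quantile normalization (0.29, adjusted p = 0.047). PSMG3 was 2615, 2849 and 3039 against 2155, 2592 and 2978 (-0.15, adjusted p = 0.33). PSMG4, its partner, was 907, 980 and 1048 against 1055, 1182 and 1170 (0.22, adjusted p = 0.13), so the pair lay on opposite sides of 0 without either passing.

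Chaperones of the base gave 2 falls of 3, beside 25.5% lower of all genes tested. PSMD5 was -0.29 (SE 0.09, adjusted p = 0.018) and PSMD9 was -0.34 (SE 0.13, adjusted p = 0.048), while PSMD10, also known as the oncoprotein gankyrin, was 0.20 (SE 0.13, adjusted p = 0.21). The calls for PSMD5 and PSMD9 held in 10 and in 4 of the 16 settings. PSMD5 lost its call without library 3 of KYSE450 or library 2 or 3 of KEAP1null-KYSE450, at -0.27 to -0.26, and also after quantile normalization (-0.12, adjusted p = 0.23), by edgeR (adjusted p = 0.2) and by DESeq2 (adjusted p = 0.14). PSMD9 lost its call when any 1 of the 6 libraries was left out, at -0.38 to -0.32. PSMD10 passed as higher without the third KYSE450 library (0.32) and after quantile normalization (0.37, adjusted p = 0.046).

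Some members lie in stretches of chromosome where the neighbouring genes were lower as well. For each member, the median log2 fold change of the 20 tested genes on each side was taken, and these medians ran from -0.57 to 0.48. Of the 8 tested members with a neighbour median of -0.3 or lower, 6 were lower themselves. PSMB4 and PSMD4, both on chromosome 1, had neighbour medians of -0.57 and -0.41, PSMD13 and PSMC3, both on chromosome 11, of -0.39 and -0.37. These are 4 of the 5 members with the largest falls. The neighbours of the fifth, PSMD2, had a median of -0.08.

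The other 20 lower members had neighbour medians above -0.3. Several fell within stretches whose median was above 0, such as PSMD3 (0.07), PSMD11 (0.06), PSMD12 (0.11), PSMD1 (0.15) and PSMC2 (0.22). With 10 genes on each side, the medians of PSMD3 and PSMD1 turned to -0.12 and -0.09. PSMB10 was higher while its neighbours had a median of -0.38, and PSME1 was higher among neighbours with a median of 0.22. Copy number was not measured, and the part of the surrounding stretch in any member's value was not tested.

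**Figure D4:**
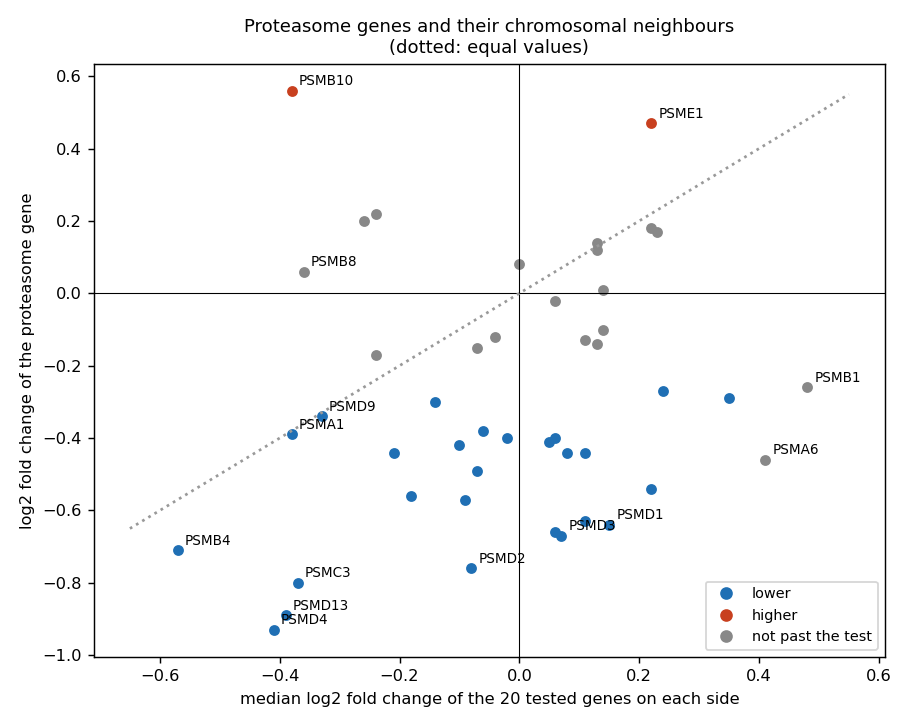
Log2 fold change of each of the 46 tested proteasome genes (y axis) against the median log2 fold change of the 20 tested genes on each side (x axis; fewer near a chromosome end), with a dotted line of equal values. PSMB4, PSMD4, PSMD13 and PSMC3 lie to the left with neighbour medians of -0.57 to -0.37, PSMD2 lies near 0 on the x axis, and PSMB10 lies above its neighbours.

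Genes that work with the proteasome were read from a list of 47 cofactors, shuttles, ubiquitin genes, regulators and antigen processing genes. All 47 were tested, of which 26 were lower and 4 higher, with a median of -0.29. The shares over all genes tested were 25.5% and 24.3%. Most of the 47 had a mean of 1000 or more, and in that range 37.5% of genes were lower and 16.0% higher. By edgeR 15 and by DESeq2 18 of the 47 passed, against 30 by limma. The transcription factors of the NFE2L family were lower. NFE2L1, which drives proteasome genes when the proteasome is impaired, measured 16392, 12412 and 10066 in KYSE450 and 7018, 4771 and 4655 in KEAP1null-KYSE450 (-1.24, SE 0.18, adjusted p = 0.00011). NFE2L3 fell from 2491, 2232 and 2015 to 581, 343 and 385 (-2.39, SE 0.17, adjusted p = 3.1e-07). The lines did not overlap for either, and the first library was the highest of each line for both.

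NFE2L2 mRNA, which encodes NRF2, was 11199, 11215 and 10616 against 8072, 7790 and 7980 (-0.47, SE 0.09, adjusted p = 0.00063), a call lost by edgeR (adjusted p = 0.058). DDI2, the protease that activates the NFE2L1 protein, was 3207, 2516 and 2564 against 2717, 2575 and 2416 (-0.10, adjusted p = 0.49), with overlap. STAT3, a transcription factor placed in the same group of 10, was 19302, 15901 and 15203 against 5147, 4405 and 4547 (-1.83, SE 0.11, adjusted p = 4.8e-08). In this group 6 genes were lower and 0 higher by limma, beside 25.5% lower and 24.3% higher of all genes tested. For genes with a mean of 1000 or more, the shares were 37.5% and 16.0%. The levels are of mRNA, and the activity of these factors was not measured.

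Of 13 genes for proteins that bind the proteasome, 5 were lower and 3 higher, beside 37.5% lower and 16.0% higher among genes whose mean reached 1000 or more, so the lower share was close to that background. ADRM1, a ubiquitin receptor of the base, fell from 12830, 11141 and 11702 to 7956, 6981 and 7472 (-0.67, SE 0.10, adjusted p = 0.0001). UCHL5, the deubiquitinase that ADRM1 holds, was 8175, 7804 and 8883 against 5731, 5307 and 5433 (-0.59, SE 0.09, adjusted p = 0.00018). USP14, another deubiquitinase of the base, was 15052, 15081 and 15650 against 11531, 10429 and 11094 (-0.47, SE 0.09, adjusted p = 0.00079), its call being lost by edgeR (adjusted p = 0.055). The lines did not overlap in any of these. PAAF1, which binds an ATPase of the base during assembly, rose from 2923, 3182 and 3342 to 4464, 4529 and 4402 without overlap (0.51, SE 0.09, adjusted p = 0.00062), a call that held in all 16 settings. TXNL1, a thioredoxin-like protein of the regulatory particle, measured 3130, 3943 and 4377 against 4315, 5124 and 5188 (0.36, SE 0.13, adjusted p = 0.031), with overlap, and its call held in 9 of the 16 and not by edgeR (adjusted p = 0.16) or DESeq2 (adjusted p = 0.21). SEM1, a small lid protein, was also higher, with 8721, 9432 and 9093 against 10843, 10907 and 11675 (0.29, SE 0.09, adjusted p = 0.014), a call lost by edgeR and by DESeq2 (adjusted p = 0.15 in both).

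Among the 9 shuttle and unfoldase genes, 6 were lower and 1 was higher. The higher one was SQSTM1, the autophagy receptor p62 and a known NRF2 target, with 17627, 15348 and 15856 in KYSE450 and 57420, 50161 and 52149 in KEAP1null-KYSE450 (1.71, SE 0.10, adjusted p = 4.3e-08). Of the 6 ubiquitin and E1 enzyme genes, 3 were lower and 0 higher by limma. Beside both groups stand 25.5% lower and 24.3% higher of all genes tested. Among genes whose mean reached 1000 or more, the shares were 37.5% and 16.0%.

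Antigen processing genes that interferon induces together with PSMB8, PSMB10, PSME1 and PSME2 gave 6 lower and 0 higher of 9. Of all genes tested, 25.5% were lower and 24.3% higher, and of those with a mean of 1000 or more 37.5% and 16.0%. TAP1 and TAP2, which together form the peptide transporter, were -1.64 and -1.51. TAP1 fell from 3464, 3243 and 2887 to 1384, 880 and 886 (adjusted p = 4.5e-06), TAP2 from 2277, 1752 and 1812 to 800, 626 and 619 (adjusted p = 2.6e-06), and TAPBP, which loads peptides, from 6428, 4878 and 4063 to 2348, 1667 and 1662 (-1.43, adjusted p = 2.1e-05). The lines did not overlap in any of the 3, in the direction opposite to PSMB10 and PSME1. The 7 partner genes NFE2L1, NFE2L3, STAT3, SQSTM1, TAP1, TAP2 and TAPBP were the only ones of the 47 that passed both thresholds.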

How the data were processed

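RNA-seq values of 3 KYSE450 and 3 KEAP1null-KYSE450 libraries were analysed. Per the labels and the study's methods, the authors trimmed reads with cutadapt 1.12, checked them with FastQC 0.11.5, aligned them to hg38 with STAR 2.6.90c and counted them with featureCounts 1.5.1. The unit of the deposited signal is a normalized count, which the authors obtained by dividing gene counts by a size factor. The strand setting is not given in the sources used here. In 4 libraries 100.0% of the low nonzero values, the ones checked, gave whole reads to within 0.01 read. Higher values were not part of that check. Columns carry the name of the line with no replicate number, so library numbers are names only. The 273 rows without a symbol held no member.

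The main test was limma 3.58.1 (R 4.3.3; lmFit, eBayes with trend, two-sided, Benjamini-Hochberg over all genes tested) on log2(normalized count + 1) for genes with a mean of at least 10, a scale that understates changes of low genes. edgeR 4.0.16 and DESeq2 1.42.0 were run on the recovered reads as alternatives, and the fits were tested on simulated data. Classes were described by counts and medians. Members, lists and classes were chosen with earlier results of these data known. Values per library were given for the catalytic and inducible beta genes, POMP, the PSMG and PSME genes, the 5 largest falls, all member rises, NFE2L1, DDI2, ADRM1, SEM1, USP14, UCHL5, the higher partners and partners past both thresholds; others were chosen to show the spread of a class. Gene positions, lengths and overlaps came from GENCODE on hg38, and promoter windows from RefSeq. 1 gene that the symbol pattern covers is not reported here.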

Additional observations from a re-analysis of the deposited data

How the results depend on the processing

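No paired analysis was possible because the columns carry no replicate numbers. Across 735 single-member alternatives, 662 kept direction and side of the threshold, 59 lost the call, 14 gained one and 0 reversed sign as a called value. Lower members numbered 26, and 16 after quantile normalization, 13 by edgeR and 21 to 28 with 1 library left out. Higher members numbered 2, and 6 after quantile normalization, 4 without the first library of both lines (chosen after seeing the data) and 2 to 3 with 1 library left out. Partner calls numbered 30, and 15 by edgeR, 18 by DESeq2 and 22 to 29 with 1 library left out. The member median of -0.36 became -0.21 after quantile normalization and ran from -0.38 to -0.28 with 1 library left out. Quantile normalization gave class medians of -0.21 for the beta ring, -0.30 for the ATPases, -0.59 for the non-ATPase base, -0.38 for the lid, -0.12 for base chaperones, -0.01 for activators and inhibitor and 0.00 for inducible beta genes, and 0.16 for core chaperones, a reversal from -0.02; the alpha ring median also changed sign, from -0.10 to 0.05. The ATPase median ran from -0.55 to -0.43 with 1 library left out, the alpha ring median from -0.22 to 0.00 and the core chaperone median from -0.16 to 0.11. The inducible beta median was 0.56 with a minimum mean of 100, where only PSMB10 was left. The edgeR and DESeq2 fits used 4 of the 6 libraries, 1 and 3 of KYSE450 and 1 and 2 of KEAP1null-KYSE450. Why the number of calls changed was not tested, either for these fits or for quantile normalization.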
